A study of Homo sapiens with 6 samples.

Results

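The 10 genes described here encode the telomere-capping complex shelterin (TERF1, TERF2, TERF2IP, POT1, TINF2 and ACD), the catalytic subunit of telomerase and its RNA-binding partner dyskerin (TERT and DKC1), and a pair of helicases that open G-quadruplex structures (RTEL1 and DHX36). They were named by symbol and found through their Ensembl identifiers, and all 10 were present among the 63241 genes of each library. All 10 also passed the filter on low counts, which left 15295 genes for testing. The cells were of the wild-type line MDA-MB-231, which was grown from a human triple-negative breast carcinoma. The 3 libraries of the treated group came from cells given 5 μM NCD for 24 h, and the 3 control libraries from cells given 0.1% DMSO for 24 h. For the treated cells the labels give no DMSO content. NCD is nitidine chloride, a plant benzophenanthridine alkaloid. For NCD replicates 2 and 3 the free text names a line with another number, while the cell line field of all 6 libraries reads MDA-MB-231. The labels do not say whether the libraries of a group came from separate cultures, so the p-values measure the spread between these libraries, which may be technical. Over all genes DMSO replicate 2 and NCD replicate 3 stood apart from the other libraries of their groups, and leaving out both changed no member's side of the adjusted p.

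Human chromosome ends carry a repeated G-rich sequence, TTAGGG, that closes with a single-stranded tail. TERF1 and TERF2 bind the double-stranded repeat, and POT1 binds the tail, held by its partner ACD (also called TPP1). TINF2 (TIN2) bridges these modules, and TERF2IP (RAP1) is carried by TERF2. Shelterin keeps the ends from being read as DNA breaks, and ACD also brings in telomerase, which adds repeats by copying its RNA template TERC. The G-rich strand can fold into stacked G-quadruplexes. RTEL1 opens these together with telomeric loops, and DHX36 unwinds G-quadruplexes in RNA and DNA. Many cancer cells, MDA-MB-231 among them, keep their telomeres with telomerase.

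Sequence upstream of 5 members that rose or fell is printed first, because the same G-rich letters that make a telomeric G-quadruplex also occur in promoters. RefSeq promoter windows (GRCh38.p14, 250 bases before to 50 bases after the annotated start) were at hand for 8 of the 10 genes, in 10 windows. TERF1 and TERF2 had none. Each window was searched for 4 runs of GGG separated by loops of 1 to 7 N, where N is any base, on both strands. Of all 35116 windows at hand, 24.9% held this pattern, and of the 16003 windows of tested genes 33.3% did. Printed 5′ to 3′ on the strand of the gene are the 150 bases before the start, with 9 bases after it for ACD because its match crosses the start. Capitals mark the matches.
ACD (chr16:67660252-67660410, minus strand): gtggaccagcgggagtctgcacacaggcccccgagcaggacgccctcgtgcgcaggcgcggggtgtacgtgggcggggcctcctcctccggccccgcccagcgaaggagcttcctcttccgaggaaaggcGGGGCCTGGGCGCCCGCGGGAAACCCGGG
TERF2IP (chr16:75647623-75647772, plus strand): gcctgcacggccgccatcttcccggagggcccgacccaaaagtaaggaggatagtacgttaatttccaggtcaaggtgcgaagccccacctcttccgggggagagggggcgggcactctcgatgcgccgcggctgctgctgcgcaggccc
POT1 (chr7:124929826-124929975, minus strand): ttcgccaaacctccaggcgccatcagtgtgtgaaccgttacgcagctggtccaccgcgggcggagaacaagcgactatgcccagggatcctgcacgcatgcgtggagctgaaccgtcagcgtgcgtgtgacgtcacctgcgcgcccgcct
RTEL1 (chr20:63657660-63657809, plus strand): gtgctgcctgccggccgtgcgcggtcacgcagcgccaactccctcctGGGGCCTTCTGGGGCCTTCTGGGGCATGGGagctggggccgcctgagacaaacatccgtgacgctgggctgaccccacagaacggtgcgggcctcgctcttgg
DHX36 (chr3:154324488-154324637, minus strand): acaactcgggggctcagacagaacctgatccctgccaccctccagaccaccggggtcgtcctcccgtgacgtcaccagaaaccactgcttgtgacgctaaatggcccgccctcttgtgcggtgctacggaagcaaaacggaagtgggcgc
ACD, which rose, had 1 match on its own strand at position -20 from the start, and RTEL1, which fell, had 1 at position -103 in the first of its 2 windows. TERT held 3 matches on the opposite strand. The windows of TERF2IP, POT1, TINF2, DKC1 and DHX36 held none, which says only that these letters were not in these 300 bases. Matches were therefore present in a gene that rose, in one that fell and in one that did not pass the test, and a match is a description of letters and not of a folded structure.

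With NCD the shelterin genes moved in opposite directions. TERF2, TERF2IP and ACD each rose by 1.05 on the log2 scale, TINF2 rose less, POT1 fell by 1.28, and TERF1 did not pass the test. Both helicase genes fell, DKC1 fell slightly, and TERT did not pass the test. In total 8 of the 10 genes passed an adjusted p below 0.05 (4 higher and 4 lower), by the quasi-likelihood test of edgeR, adjusted by Benjamini-Hochberg over all tested genes. Over all tested genes 69.3% did (35.3% higher and 34.1% lower). With the added demand of an absolute log2 fold change above 1, which defines differential expression here, 4 of the 10 were called (TERF2, TERF2IP and ACD higher, POT1 lower), against 31.0% of all tested genes (13.5% higher and 17.5% lower). The libraries of the 2 groups did not overlap in 8 of the 10 genes, against 72.6% of all tested genes. The median log2 fold change was -0.004 over the 10 genes and 0.036 over all tested genes. With so few genes a share near the background is no result about the members, and the values of each gene follow. Scaling by library totals raised the share of higher calls among all differentially expressed genes from 43.6% to 56.2%, and called the members TERF2, TERF2IP, ACD and POT1 in the same directions. Neither cell number nor RNA per cell was measured in these files, and changes in them cannot be told apart in RNA from whole cultures.

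**Figure D1:**
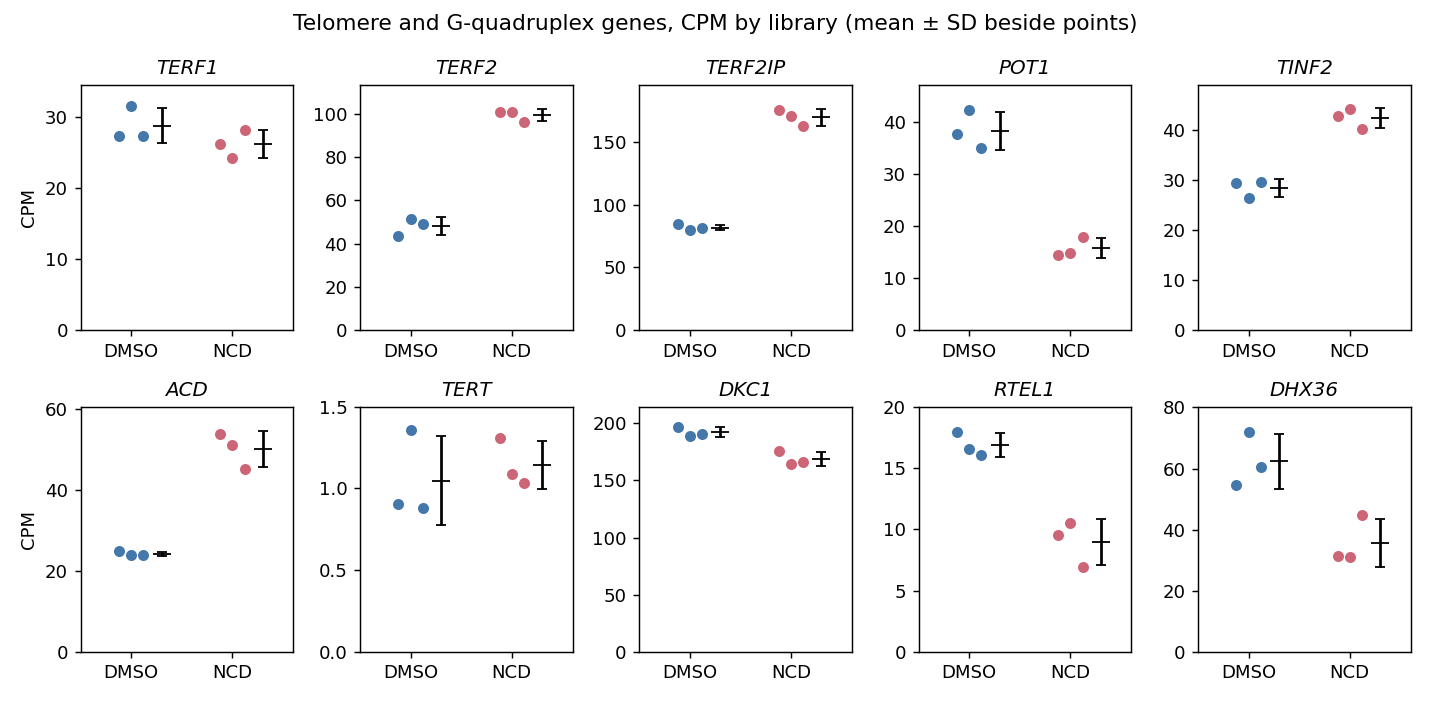
Expression of the 10 genes in each library, in CPM (counts scaled to the TMM-adjusted library size; each vertical axis starts at 0). Points are the 3 DMSO and 3 NCD libraries in replicate order, with mean ± SD at their right; the points of the groups overlap only for TERF1 and TERT.

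TERF2 (ENSG00000132604, chr16:69355561-69408571, minus strand, GENCODE release 29 on GRCh38) encodes the protein that forms and guards the telomeric loop. Its expression was 43.3, 51.5 and 49.1 CPM with DMSO and 101, 101 and 96.4 CPM with NCD, where CPM are counts scaled by edgeR to the TMM-adjusted library size. Every NCD library was far above every DMSO library. The means were 48.0 ± 4.20 and 99.6 ± 2.77 CPM (SD, n = 3 each), a log2 fold change of 1.05 (standard error, SE, 0.08; adjusted p = 2.6e-06 by edgeR). TERF2IP (ENSG00000166848, chr16:75647786-75761872, plus strand), whose protein sits on TERF2 and restrains recombination at telomeres, was at 84.4, 79.7 and 81.6 CPM with DMSO and at 176, 171 and 163 CPM with NCD. The groups were again well apart. The mean rose from 81.9 ± 2.40 to 170 ± 6.54 CPM (SD, n = 3 each), a log2 fold change of 1.05 (SE 0.06, adjusted p = 5.05e-07 by edgeR). KARS, on the opposite strand, overlaps TERF2IP by 858 bases and had between 7386.0 and 9652.1 counts per library. Whether the counting used strand is not given in the sources used here, so its part in the TERF2IP counts was not tested. For KARS itself the unscaled counts were 7864.0, 7386.0 and 8248.0 under DMSO, and under NCD they were 9652.1, 8145.9 and 8400.8. TMM factors were 0.911 to 0.949 with DMSO and 1.06 to 1.09 with NCD. These counts are thus not comparable with the CPM of TERF2IP and cannot be read as a rise of KARS.

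ACD (ENSG00000102977, chr16:67657512-67660815, minus strand), the shelterin subunit that recruits telomerase and holds POT1, was at 24.8, 23.8 and 23.8 CPM with DMSO and at 53.9, 51.1 and 45.2 CPM with NCD. The DMSO libraries were almost level and all NCD libraries lay above them, with NCD replicate 3 the lowest of the treated. The means were 24.2 ± 0.575 and 50.1 ± 4.43 CPM (SD, n = 3 each), a log2 fold change of 1.05 (SE 0.09, adjusted p = 5.09e-06 by edgeR). ACD and TERF2 sat just past the fold threshold: without NCD replicate 1 the value for ACD was 0.97, and without DMSO replicate 1 that for TERF2 was 0.96, while over all fits without 1 library the adjusted p by edgeR stayed at or below 0.000141 for ACD and 6.66e-05 for TERF2. TINF2 (ENSG00000092330, chr14:24239643-24242674, minus strand), the bridge between the double-stranded and single-stranded modules, was at 29.3, 26.3 and 29.6 CPM with DMSO and at 42.7, 44.2 and 40.2 CPM with NCD. Its groups did not overlap, and the step was smaller than in the other genes that rose. The log2 fold change was 0.58 (SE 0.08, adjusted p = 0.000168 by edgeR), a fold of 1.49.

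POT1 (ENSG00000128513, chr7:124822386-124929983, minus strand), the shelterin protein that covers the single-stranded tail, went the other way. It was at 37.7, 42.3 and 35.0 CPM with DMSO and at 14.5, 14.8 and 18 CPM with NCD. All NCD libraries were below all DMSO libraries, with NCD replicate 3 the highest of the treated. The mean fell from 38.3 ± 3.72 to 15.8 ± 1.91 CPM (SD, n = 3 each), a log2 fold change of -1.28 (SE 0.11, adjusted p = 8.47e-06 by edgeR), 2.43-fold lower. The antisense gene POT1-AS1, which overlaps it by 111 bases, had at most 12 counts in any library. TERF1 (ENSG00000147601, chr8:73008864-73048122, plus strand), the other protein on the double-stranded repeat and a regulator of telomere length, was at 27.3, 31.6 and 27.4 CPM with DMSO and at 26.2, 24.2 and 28.2 CPM with NCD. Its groups overlapped. The log2 fold change was -0.13 (95% interval -0.35 to 0.08, adjusted p = 0.227 by edgeR), an interval that does not hold the rises of TERF2, TERF2IP, ACD and TINF2. Under scaling by library totals its value turned to 0.06 (adjusted p = 0.599 by edgeR).

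**Figure D2:**
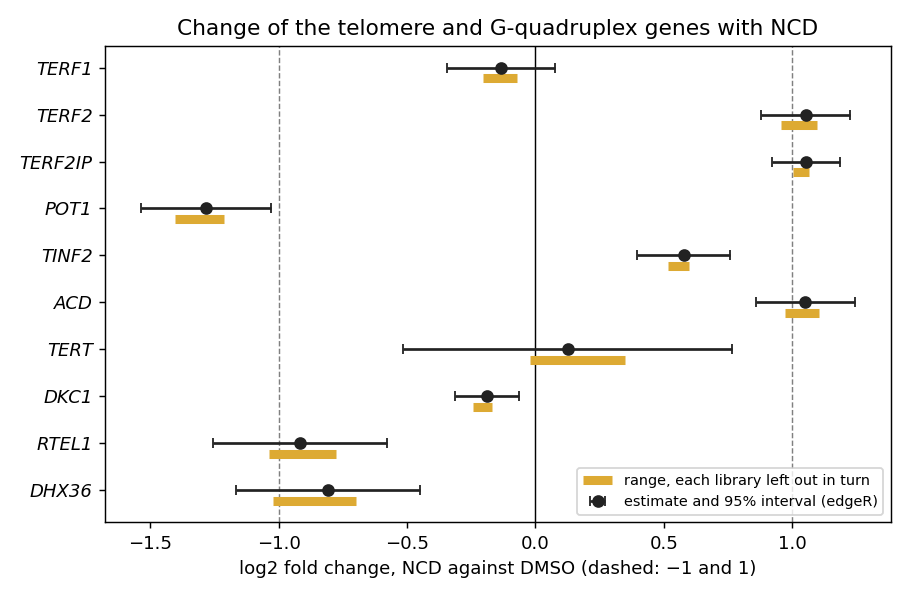
Log2 fold change of each gene with NCD against DMSO. Points and thin bars are the edgeR estimate and its 95% interval, thick bars the range over the 6 fits that each leave out 1 library, and dashed lines mark -1 and 1; TERF2 and ACD reach 0.96 and 0.97 at their lowest, and RTEL1 and DHX36 reach -1.04 and -1.02.

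Because the subunits moved apart, the makeup of the shelterin transcripts changed. Scaled per kilobase of merged exons, which allows levels to be compared between genes, the summed level of the 6 genes was 60.5 ± 0.239 CPM per kb with DMSO and 105 ± 3.89 with NCD (SD, n = 3 each). POT1 made up 10.5, 11.8 and 9.85% of this sum under DMSO and 2.28, 2.37 and 3.03% under NCD. TERF1 went from 5.38% ± 0.45 to 2.84% ± 0.303 (SD, n = 3 each). POT1 and TERF1 were thus the smaller parts of the sum and became smaller still in every treated library. For TERF1 this came with the larger sum, as its own level, 3.26 and 2.97 CPM per kb, did not pass the test. The share of TERF2IP went from 40.1% to 48.0%, that of TERF2 from 14.1% to 16.9%, that of ACD from 12.4% to 14.8%, and that of TINF2, although its own level rose, from 17.3% to 14.9%. With the length of the longest transcript in place of merged exons POT1 went from 9.90% to 2.36% and TERF1 from 8.43% to 4.44%. These are shares of transcripts, and protein was not measured in these files.

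**Figure D3:**
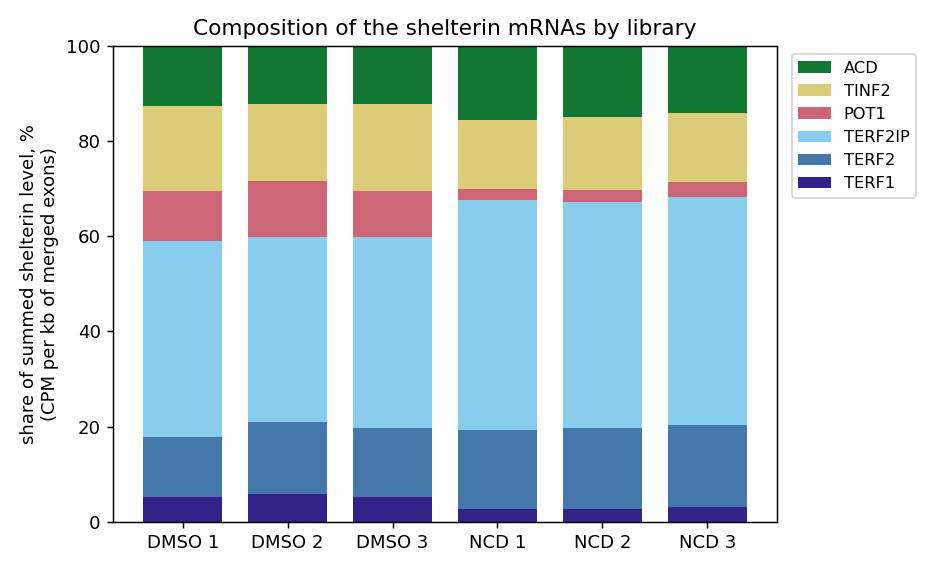
Share of each subunit in the summed shelterin level of each library, in percent of CPM per kb of merged exons. POT1 falls from 9.85 to 11.8% under DMSO to 2.28 to 3.03% under NCD, while TERF2IP is the largest part of every bar.

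Ratios of counts within a library do not depend on the scaling between libraries. ACD and POT1 form a protein pair on the tail, and the ratio of their counts was 0.659, 0.563 and 0.682 under DMSO and 3.72, 3.45 and 2.52 under NCD. The groups were far apart, by 5.04-fold. TERF2 to TERF1, the proteins of the double-stranded repeat, went from 1.67 ± 0.107 to 3.82 ± 0.381 (SD, n = 3 each), 2.28-fold higher, and TINF2 to TERF1 was 1.64-fold higher. Each of these 3 ratios gave p = 0.1 in a two-sided exact permutation test, the smallest that 3 against 3 libraries allow, and no adjusted value over the 6 ratios computed can be below it. TERF2IP to TERF2 stayed level in its mean, at 1.72 ± 0.206 and 1.71 ± 0.0301 (SD, n = 3 each; exact permutation p = 1.0). The genes for this protein pair had both risen by 1.05 on the log2 scale. The remaining ratios were DHX36 to RTEL1, with 3.71 ± 0.652 and 4.24 ± 1.95 (exact permutation p = 0.9), and DKC1 to TERF1, with 6.73 ± 0.665 and 6.46 ± 0.482 (exact permutation p = 0.5; SD, n = 3 each).

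TERT (ENSG00000164362, chr5:1253147-1295069, minus strand), the reverse transcriptase of telomerase, was barely detected. Its counts were 15, 24 and 16 under DMSO and 30, 21 and 22 under NCD, or 0.877 to 1.36 and 1.03 to 1.31 CPM. The groups overlapped. The log2 fold change was 0.13 (95% interval -0.51 to 0.77, adjusted p = 0.703 by edgeR), and the ratio of the summed counts, each group scaled by its summed TMM-adjusted library sizes, was 1.09 (exact 95% interval 0.761 to 1.58, covering counting error only). A change within these intervals was not detectable at this depth, and the sign turned when DMSO replicate 3 or NCD replicate 1 was left out. DKC1 (ENSG00000130826, chrX:154762742-154777689, plus strand), which encodes dyskerin, the protein that stabilises TERC and other H/ACA RNAs, was at 197, 189 and 191 CPM with DMSO and at 176, 164 and 166 CPM with NCD. The groups did not overlap, by a narrow step. The log2 fold change was -0.19 (SE 0.06, adjusted p = 0.0124 by edgeR). It did not pass without NCD replicate 2 (-0.17, adjusted p = 0.0674 by edgeR), and under scaling by library totals it was 0.01 (adjusted p = 0.894 by edgeR).

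RTEL1 (ENSG00000258366, chr20:63657810-63696253, plus strand) encodes the helicase that opens telomeric loops and G-quadruplexes during replication. It was at 18, 16.6 and 16.1 CPM with DMSO and at 9.53, 10.5 and 6.90 CPM with NCD. The groups did not overlap, with NCD replicate 3 the lowest. The mean fell from 16.9 ± 0.95 to 8.96 ± 1.84 CPM (SD, n = 3 each), a log2 fold change of -0.92 (SE 0.15, adjusted p = 0.000498 by edgeR). Without NCD replicate 3 the log2 fold change was -0.78. The readthrough gene RTEL1-TNFRSF6B shares 36954 bases with it on the same strand and had 74.9 to 209.6 counts per library, so the split of reads between them is uncertain. With the counts of both genes summed, an alternative chosen after seeing the data, the log2 fold change was -0.88 (adjusted p = 2.62e-05 by edgeR).

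DHX36 (ENSG00000174953, chr3:154272546-154324497, minus strand), a helicase with a strong preference for G-quadruplexes, was at 54.5, 72.1 and 60.4 CPM with DMSO and at 31.2, 31.0 and 44.8 CPM with NCD. The groups did not overlap, but DMSO replicate 2 and NCD replicate 3 stood above the other libraries of their groups. The mean fell from 62.3 ± 8.93 to 35.6 ± 7.89 CPM (SD, n = 3 each), a log2 fold change of -0.81 (SE 0.16, adjusted p = 0.00151 by edgeR). It was -0.70 without DMSO replicate 2, -1.02 without NCD replicate 3 and -0.89 without both. These are the libraries that stood apart over all genes: chi-square per degree of freedom was 16.86 between DMSO replicates 1 and 2 and 15.85 between NCD replicates 1 and 3, against 4.417 between DMSO replicates 1 and 3 and 2.086 between NCD replicates 1 and 2. Without both of them, chosen after seeing the data, 8 of the 10 genes again passed the adjusted p by edgeR and 4 were differentially expressed, beside 32.1% of the 15362 genes then tested (73.1% of these passed the adjusted p at any fold).

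Per kilobase of merged exons, DKC1 had the highest level of the 10 genes with DMSO, at 45.8 ± 1.06 CPM per kb (SD, n = 3), ahead of TERF2IP at 24.2 ± 0.71 (SD, n = 3). With NCD the order of these 2 turned, at 40.2 ± 1.42 for DKC1 and 50.3 ± 1.93 for TERF2IP (SD, n = 3 each). TINF2, TERF2, ACD, POT1 and DHX36 followed with DMSO, at 10.5 ± 0.67, 8.54 ± 0.747, 7.50 ± 0.178, 6.50 ± 0.631 and 5.90 ± 0.846 CPM per kb (SD, n = 3 each). The ranges of POT1 and DHX36 overlapped across DMSO libraries, so their order is not separated. TERF1 at 3.26 and RTEL1 at 2.62 CPM per kb came next, and TERT at 0.227 was the lowest with DMSO and, at 0.248, with NCD. With NCD POT1 dropped from the sixth place to the eighth, at 2.67 ± 0.324 CPM per kb (SD, n = 3). Its libraries overlapped those of TERF1 at 2.97 ± 0.224 and of DHX36 at 3.38 ± 0.747 (SD, n = 3 each). TERF1 and DHX36 overlapped as well, so the order of these genes with NCD is not separated by merged exons. The NCD libraries of TINF2 and ACD also overlapped, at 15.6 ± 0.754 and 15.5 ± 1.37 CPM per kb (SD, n = 3 each). The levels depended on the length used, by more than 1 SD over the DMSO libraries in all genes but TERT, and with the longest transcript TERF2 stood above TINF2 with DMSO, at 16.1 and 13.1 CPM per kb. By that length the NCD libraries of TERF1, DHX36 and POT1 did not overlap, at 6.73 to 7.83, 4.6 to 6.65 and 3.56 to 4.4 CPM per kb.

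Across all tested genes the change with NCD varied with gene span, so each member was set beside the genes of its own span decile, as a description. The median log2 fold change was 0.43 in the decile from 13.2 to 20.1 kb. In the longest decile, from 153.1 kb up, it was -2.09 (quartiles -3.05 and -1.24). POT1, with 107.6 kb, fell by 1.28 on the log2 scale where the median of its decile was -0.93 (quartiles -1.40 and -0.33). It was the only one of the 10 genes in the 2 longest deciles apart from TERF2IP, whose span depends on the annotation: it is 114.1 kb in GENCODE release 29 and 9.7 kb in RefSeq. Its log2 fold change of 1.05 stood beside a decile median of -0.93 by the first and of 0.39 (upper quartile 0.89) by the second. ACD, with 3.3 kb, was above its decile's upper quartile of 0.85, and TINF2, with 3.0 kb, was within its quartiles. TERF2 (53.0 kb) at 1.05 lay above the upper quartile of its decile, 0.43, and at its RefSeq span of 30.4 kb it also lay above that of its decile, 0.59. RTEL1 (38.4 kb) at -0.92 and DHX36 (52.0 kb) at -0.81 lay below their lower quartiles of -0.29 and -0.45, and DKC1 (14.9 kb) at -0.19 lay below its lower quartile of -0.03. TERF1 and TERT were inside theirs. The falls of RTEL1, DHX36 and DKC1 thus lay lower than the changes of most genes of like span, while that of POT1 lay within the middle of its decile.

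**Figure D4:**
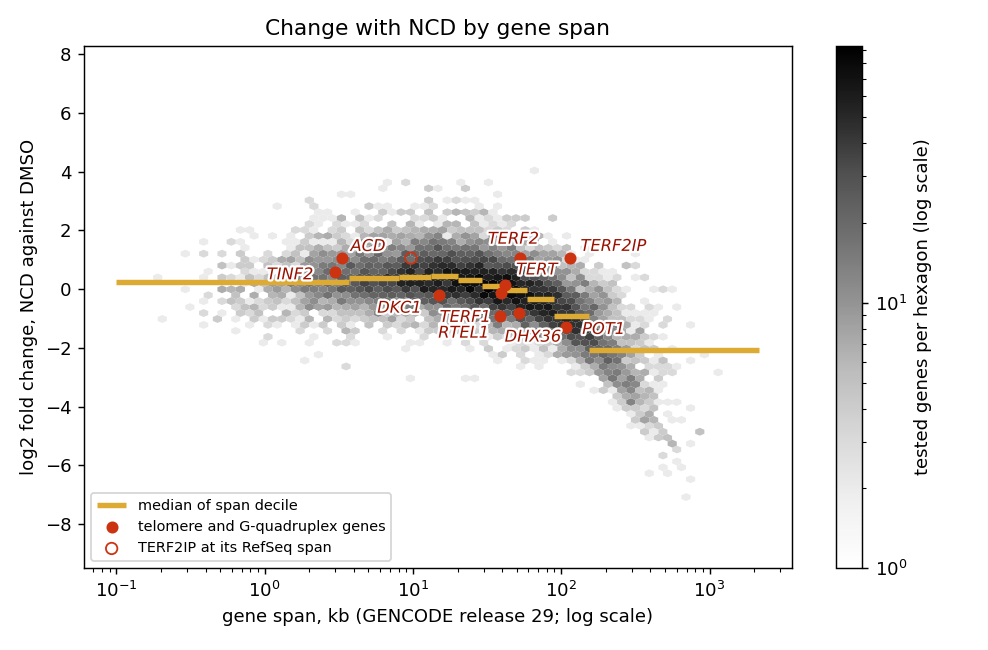
Log2 fold change with NCD against gene span in kb (log axis) for the tested genes with a span; darker hexagons hold more genes and horizontal bars are the medians of span deciles. POT1 sits near the median of its decile, -0.93, TERF2 is above its own, and the open circle puts TERF2IP at its RefSeq span of 9.7 kb.

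The other parts of the telomerase particle were taken from a list of 18 genes for its assembly and for processing of TERC, all of them tested. By edgeR 4 rose, 8 fell and 6 did not pass, with 4 differentially expressed, all lower, and a median log2 fold change of -0.24. The shares that passed and that were differentially expressed, 66.7% and 22.2%, stood beside 69.3% and 31.0% over all tested genes. TERC itself, the RNA template, was at 34.3, 23.6 and 60.7 counts under DMSO and at 4.9, 8.0 and 4.5 under NCD. A second annotated gene, RF00024, covers 438 bases of TERC on the same strand and shares its reads, so the sum is the safer value. Summed, they were at 106, 67 and 74 counts under DMSO and at 19, 14 and 15 under NCD. Every treated library was far below every control. TERC alone gave a log2 fold change of -2.96 (SE 0.45, adjusted p = 0.000302 by edgeR) and the sum, chosen after seeing the data, gave -2.64 (adjusted p = 2.62e-05 by edgeR). Scaled by the TMM-adjusted library sizes, the summed counts were 6.24-fold lower with NCD (exact 95% interval 4.57 to 8.69, counting error only). TERC has no poly(A) tail in its mature form, and how RNA was selected for these libraries is not given in the sources used here.

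PARN, the nuclease that trims TERC to its mature end, had the largest fall among the genes of the list with a mean of at least 5 CPM. It went from 30.4 ± 0.872 to 6.18 ± 0.432 CPM (SD, n = 3 each; log2 fold change -2.29, adjusted p = 8.44e-08 by edgeR). Its span is 197.0 kb, and its fall lay within the quartiles of the longest span decile, -3.05 and -1.24. Among the H/ACA partners of dyskerin, NOP10 gave 0.19, NHP2 -0.22 and GAR1 -0.21 on the log2 scale, none of them past the test (adjusted p = 0.166, 0.0806 and 0.0687 by edgeR). NHP2 and GAR1 did pass without DMSO replicate 2 (adjusted p = 0.0213 and 0.00202 by edgeR), and NOP10 under scaling by library totals (0.39, adjusted p = 0.00861 by edgeR). WRAP53, which carries TERC to Cajal bodies, rose by 0.27 (adjusted p = 0.00754 by edgeR), a call lost without NCD replicate 1 (0.22, adjusted p = 0.0574 by edgeR). TEP1, a telomerase-associated protein, had the largest rise of the list, from 15.5 ± 1.80 to 26.8 ± 1.70 CPM (SD, n = 3 each; log2 fold change 0.79, adjusted p = 0.000139 by edgeR).

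The CST complex takes over from telomerase and brings in DNA polymerase alpha-primase to fill in the other strand. Of the 7 genes of both complexes 2 rose, 3 fell and 2 did not pass, with a median log2 fold change of -0.14, and 71.4% passed, near the 69.3% of all tested genes. Within CST the 3 subunits differed. STN1 fell from 45.9 ± 1.95 to 23.7 ± 1.29 CPM (log2 fold change -0.95, adjusted p = 4.95e-06 by edgeR), and TEN1 rose from 7.63 ± 0.413 to 11.4 ± 0.938 CPM (log2 fold change 0.58, adjusted p = 0.00138 by edgeR; SD, n = 3 each). CTC1 gave 0.20 with overlapping groups (adjusted p = 0.125 by edgeR), and passed without DMSO replicate 2 (0.28, adjusted p = 0.0431 by edgeR) and under scaling by library totals (0.39, adjusted p = 0.0153 by edgeR). POLA1, the catalytic polymerase subunit, was at 50.7, 57.9 and 51.4 CPM with DMSO and at 4.59, 3.10 and 4.52 CPM with NCD. That is a 13.0-fold fall (log2 fold change -3.70, SE 0.14, adjusted p = 6.02e-08 by edgeR) in a gene with a span of 303.1 kb. The longest span decile, which holds it, has a median of -2.09 and a lower quartile of -3.05.

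Among 16 shelterin partners and end-processing genes 5 rose, 8 fell and 3 did not pass, and the median log2 fold change was -0.76. With 81.2% past the adjusted p and 31.2% differentially expressed, the list stood beside 69.3% and 31.0% of all tested genes. TNKS, a tankyrase that modifies TERF1 and releases it from telomeres, was at 29.8, 35.9 and 31.2 CPM with DMSO and at 7.12, 6.21 and 8.25 CPM with NCD. Its groups were far apart, with a log2 fold change of -2.17 (SE 0.13, adjusted p = 6.68e-07 by edgeR). With a span of 226.4 kb it belongs to the longest span decile, and its fall was near the median of that decile, -2.09. The second tankyrase gene, TNKS2, had overlapping groups and gave 0.23 (adjusted p = 0.0682 by edgeR). It passed without DMSO replicate 2 and without NCD replicate 2, with adjusted p values of 0.0396 and 0.0433 by edgeR, and under scaling by library totals (0.43, adjusted p = 0.00826 by edgeR) and without a filter (adjusted p = 0.0212 by edgeR). ZBTB48, which binds telomeric repeats and limits telomere length, rose from 5.42 ± 0.686 to 12.4 ± 0.375 CPM (SD, n = 3 each; log2 fold change 1.19, adjusted p = 2.36e-05 by edgeR).

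The direction of RTEL1 and DHX36 was also the commoner one among 18 other helicase-family genes linked to G-quadruplexes. Of these 13 fell, 2 rose and 3 did not pass, 3 were differentially expressed, all lower, and the median log2 fold change was -0.43, beside 0.036 over all tested genes. Of the list 83.3% passed and 16.7% were differentially expressed, against 69.3% and 31.0% of all tested genes. Over all tested genes 34.1% fell at any fold and 17.5% were called lower. Falls also outnumbered rises for telomerase assembly (8 to 4), CST with its polymerase (3 to 2) and shelterin partners (8 to 5). The same held for G-quadruplex binders without helicase activity (9 to 4), but not for telomeric chromatin (3 to 5). Some of the smaller falls and rises did not pass in every fit without 1 library, with adjusted p up to 0.144 by edgeR. ATRX, a chromatin remodeller that limits G-quadruplexes at telomeres, was at 28.4, 58.2 and 40.2 CPM with DMSO and at 2.62, 3.26 and 7.32 CPM with NCD. All treated libraries were well below the controls, and DMSO replicate 2 and NCD replicate 3 were again the highest of their groups. The log2 fold change was -3.26 (SE 0.38, adjusted p = 5.37e-05 by edgeR), with a span of 281.4 kb. It was -3.87 without NCD replicate 3 and -2.97 without DMSO replicate 2. The longest span decile, which holds ATRX, has a median of -2.09 and a lower quartile of -3.05. WRN, the helicase lost in Werner syndrome, fell from 35.5 ± 4.08 to 9.98 ± 3.0 CPM (log2 fold change -1.83, adjusted p = 2.78e-05 by edgeR). BRIP1 (FANCJ), a helicase of the Fanconi pathway, fell from 47.3 ± 8.20 to 14.6 ± 3.95 CPM (log2 fold change -1.70, adjusted p = 4.56e-05 by edgeR; SD, n = 3 each). WRN, with 140.0 kb, lay below the lower quartile of its span decile, -1.40. BRIP1, with 182.3 kb, lay within the quartiles of the longest decile, -3.05 and -1.24. BLM and PIF1, which also remove G-quadruplexes during replication, fell by less, with log2 fold changes of -0.62 and -0.75 (adjusted p = 0.000523 and 0.000301 by edgeR). BLM, with 98.8 kb, lay within the quartiles of its span decile, -1.40 and -0.33. PIF1, with 10.0 kb, lay below the lower quartile of its own, 0.01. DHX9, an abundant DNA and RNA helicase, gave -0.29 (adjusted p = 0.00233 by edgeR), a call lost under scaling by library totals (-0.09, adjusted p = 0.233 by edgeR). RECQL4 had the largest rise, with a log2 fold change of 0.53 (adjusted p = 0.000364 by edgeR).

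**Figure D5:**
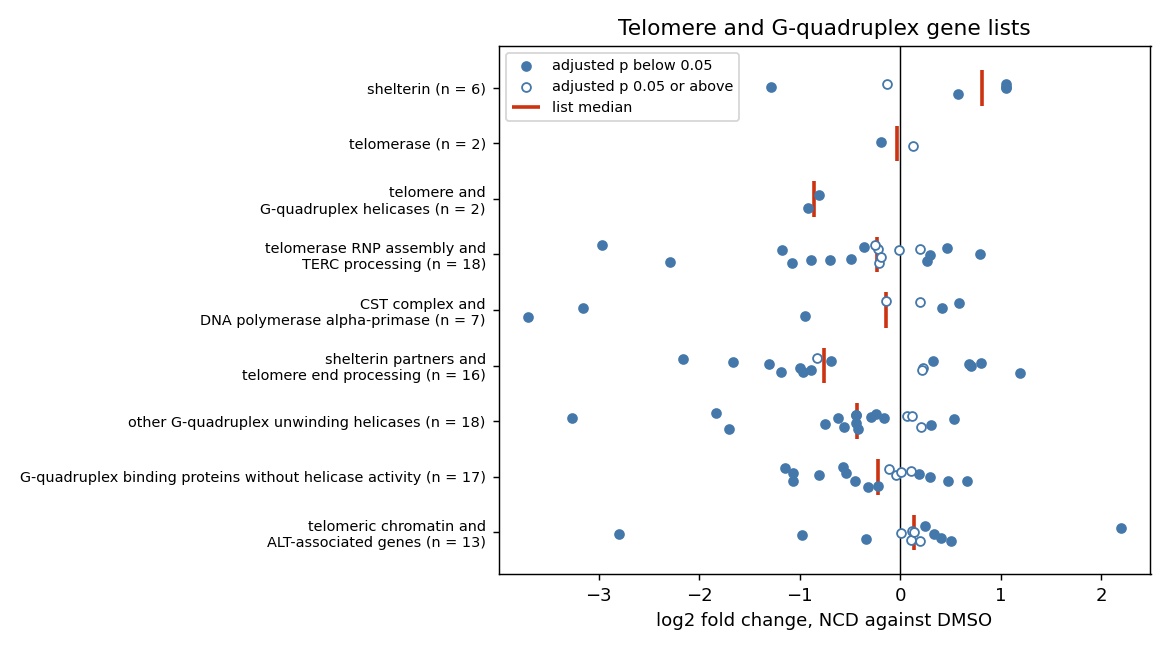
Log2 fold change of each tested gene by list, with filled points for an adjusted p below 0.05 by edgeR, open points for the rest and a bar at the list median. The median is -0.43 for the 18 other helicase-family genes and -0.76 for the 16 shelterin partners; vertical scatter within a list has no meaning.

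The labelled cell type was checked against its markers. VIM was at 3060 ± 100 CPM with DMSO and 2640 ± 133 with NCD, and the epithelial KRT8 at 412 ± 31.7 and 596 ± 56.6 (SD, n = 3 each). The mesenchymal markers CD44 and AXL were present in all libraries and fell, from 977 ± 18.1 to 277 ± 14.6 CPM and from 856 ± 10.3 to 399 ± 9.43 CPM (SD, n = 3 each; log2 fold changes -1.82 and -1.10, adjusted p = 4.18e-08 and 2.9e-07 by edgeR). ESR1 and PGR reached at most 0.384 and 0.155 CPM in any library and did not pass the filter, while ERBB2 was at 37.2 ± 1.76 and 61.0 ± 2.32 CPM (SD, n = 3 each). Of 9 markers of other cell types 3 passed the filter. COL1A2 and HBB were at 0 in all libraries, PTPRC reached at most 0.0566 CPM, and COL1A1 rose from 2.86 ± 0.636 to 13.6 ± 1.06 CPM (SD, n = 3 each). The 9 markers summed to 3.34 to 4.82 CPM under DMSO and 13.8 to 16.3 under NCD, most of it COL1A1, and their part in the results was not tested. Totals ranged from 18223594 to 19410833 counts with DMSO and from 18232169 to 21629653 with NCD, at which a gene such as TERT rests on 15 to 30 counts per library.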

How the data were processed

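RNA-seq of 6 MDA-MB-231 libraries was used, 3 per group, with groups taken from the labels. The authors aligned reads with HISAT2 and deposited expected counts per Ensembl gene from RSEM, not normalized. The submitters' processing notes name GRCh38 (hg38). Tool versions, annotation release and strandedness are not given in the sources used here. GENCODE release 29 (GRCh38) gave coordinates and held 99.44% or more of every library's counts. In each library 25 stray text lines without a count were skipped.

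Expected counts were rounded and tested with edgeR 4.0.16 in R 4.3.3 (filterByExpr, TMM, glmQLFit and glmQLFTest, Benjamini-Hochberg adjustment), and the test was tried on simulated data. TMM factors were 0.911 to 0.949 with DMSO and 1.06 to 1.09 with NCD. Standard errors are the absolute log2 fold change over the square root of F. Intervals cover 95%. Alternatives were DESeq2 1.42.0, limma-voom (limma 3.58.1), library totals, RLE scaling, no filter, 10 or more counts in each library, no threshold on fold, a prior count set to 2, the replicate block, and each library left out. Exact tests used scipy 1.17.1, with tables and plots from pandas 2.3.3, numpy 2.4.6 and matplotlib 3.10.9.

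The members and lists were chosen with earlier results of these data known. Named genes are the 10 members, the called gene with the largest rise and the one with the largest fall of each list (mean of at least 5 CPM, groups not overlapping), and 16 genes taken by their known roles. KARS, RF00024, RTEL1-TNFRSF6B and POT1-AS1 were named after their values were seen, as overlapping genes. Apart from the markers named in the report, a gene of the marker list for other cell types is not reported here by value.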

Additional observations from a re-analysis of the deposited data

How the results depend on the processing

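Without a fold threshold 10602 genes in all and 8 members counted as changed, in place of 4736 and 4. With each library left out, the count over all genes ranged from 4653 to 5049, that of differentially expressed members from 3 (without DMSO replicate 1 or NCD replicate 1) to 5 (without NCD replicate 2 or 3), and that of members past the adjusted p from 7 (without NCD replicate 2, where DKC1 did not pass) to 8. TERT then ranged from -0.02 (-0.019 without DMSO replicate 3, -0.012 without NCD replicate 1) to 0.35 on the log2 scale, and was 0.427 without both DMSO replicate 2 and NCD replicate 3. Scaling by library totals turned TERF1 to 0.063 and DKC1 to 0.008, because it moved the median of all genes from 0.036 to 0.233; higher calls then made up 56.2% of 4974, against 43.6% of 4736. With replicate number as the block, 4723 genes and 4 members were called, and no member changed its side of the adjusted p. Same-numbered libraries deviated together with r of 0.216, -0.185 and 0.023, too few values to tell whether the numbers pair them. DESeq2 called 4842 genes, limma-voom 4763, RLE scaling 4742, no filter 5545 and at least 10 counts 3683. TERF2, TERF2IP, POT1, TINF2, ACD, RTEL1 and DHX36 kept their direction and their side of the adjusted p under every alternative run. TERT and TERC rest on 15 to 30 and on 4.5 to 60.7 counts per library, so small changes in them were not detectable.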

Other observations

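Genes for proteins that bind G-quadruplexes but are not helicases moved unevenly. Of 17 such genes, all tested, 4 rose, 9 fell and 4 did not pass by edgeR, with a median log2 fold change of -0.23, and 3 were differentially expressed, all lower. The shares past the adjusted p and differentially expressed were 76.5% and 17.6%, against 69.3% and 31.0% of all tested genes. HNRNPA1, an abundant RNA-binding protein that also binds telomeric DNA, was at 2580, 2340 and 2410 CPM with DMSO and at 1130, 1090 and 1090 CPM with NCD. Its groups were far apart, with a log2 fold change of -1.15 (SE 0.07, adjusted p = 7.43e-07 by edgeR). FMR1, which binds G-quadruplexes in RNA, had the largest rise, from 39.5 ± 3.14 to 62.4 ± 6.52 CPM (SD, n = 3 each; log2 fold change 0.66, adjusted p = 0.000241 by edgeR). Several processed copies of HNRNPA1 exist in the genome, and how the counting divided reads among them is not given in the sources used here.

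Of 13 genes for telomeric chromatin and for the recombination-based upkeep of telomeres (ALT), 5 rose, 3 fell and 5 did not pass, with a median log2 fold change of 0.14. Of these 61.5% passed and 15.4% were differentially expressed, against 69.3% and 31.0% of all tested genes. KMT5C, a methyltransferase of histone H4 in constitutive heterochromatin, was at 1.69, 2.60 and 1.70 CPM with DMSO and at 7.95, 10.9 and 8.72 CPM with NCD, a log2 fold change of 2.19 (SE 0.21, adjusted p = 1.5e-05 by edgeR). SP100, a component of PML bodies, fell from 81.6 ± 2.67 to 41.4 ± 1.89 CPM (SD, n = 3 each; log2 fold change -0.98, adjusted p = 1.77e-06 by edgeR). With a span of 128.1 kb, it was near the median of its span decile, -0.93. The largest fall of this list was that of NSMCE2, which has a mean below 5 CPM and is named here after its values were seen, with a log2 fold change of -2.80 (adjusted p = 7.96e-06 by edgeR). Its span is 275.4 kb, and its fall lay within the quartiles of the longest span decile, -3.05 and -1.24.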
